A study of Homo sapiens with 3 samples.

Results

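The genes described here encode the small stable RNAs of the nucleus and cytoplasm: small nucleolar RNAs, Cajal body RNAs, spliceosomal RNAs, Y RNAs, vault RNAs, snaR, 7SK and the RNAs of the signal recognition particle, RNase P and RNase MRP. They were chosen by platform symbol, as all genes whose symbol starts with SNORD, SNORA, SCARNA, SNAR, RNU, RNY, RN7S, RPPH, RMRP or VTRNA. This gave 333 probes of 327 genes, among 47319 probes on the array and 20043 genes with a symbol. The cells were HCC-LM3, an established line of human hepatocellular carcinoma. GANT61 was given to 1 condition and cyclopamine to another, each at 20 µM, while the third had only the solvent DMSO, and all were read at 48 h. GANT61 inhibits the Gli transcription factors at the end of the Hedgehog pathway, and cyclopamine blocks SMO, the membrane protein upstream of them. All 3 conditions are the same line without a genetic change, and each was read on 1 Illumina HumanHT-12 v4 array. No difference between conditions therefore has a replicate check, and no p-value is given.

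C/D box snoRNAs guide the methylation of ribosomal RNA, H/ACA box snoRNAs guide its pseudouridylation, and Cajal body RNAs do the same for spliceosomal RNAs. Most snoRNAs are cut out of introns of a host gene after splicing, whereas spliceosomal RNAs, 7SK, Y RNAs and snaR have genes of their own, transcribed by RNA polymerase II or III. Most of these mature RNAs carry no poly(A) tail, while the labelling kit starts cDNA from poly(A). Whether a probe read the mature RNA or a longer transcript that holds its sequence cannot be told apart here.

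Intensities are the normalized values on a linear scale, and differences are given as log2. The background limit was an intensity of 63.75, which is 1.5 times the most common intensity of an array (42.5), and a gene above it on 1 or more arrays counted as above background. Of the 327 small RNA genes, 120 (36.7%) were above background, against 10441 (52.1%) of all 20043 genes. Of these, 105 exceeded the limit with GANT61, 90 with cyclopamine and 94 with DMSO, and 69 did so on all 3 arrays. SCARNA4, with a highest intensity of 63.98, lay just inside the limit and SNORA29, with 63.67, just outside. By class, 50 of 176 C/D box, 45 of 101 H/ACA box and 10 of 24 Cajal body RNA genes were above background. The others were 6 of 13 spliceosomal and related RNA genes, all 4 Y RNA genes, both genes for 7SL and 7SK, 1 of 2 snaR genes, 1 of 2 RNase P and MRP genes and 1 of 3 vault RNA genes. Pairs of probes for the same gene, over 2764 pairs of all genes, gave an SD of 0.43 for GANT61 minus DMSO, 0.38 for cyclopamine minus DMSO and 0.20 for GANT61 minus cyclopamine. This SD is scaled from the median absolute deviation and covers probes, not cultures.

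Of the markers of cell types, 3 of 3 epithelial, 1 of 6 hepatocyte, 0 of 3 endothelial and 0 of 3 immune genes were above background, so the defining liver proteins were largely at background. ALB, the hepatocyte marker that passed, had an intensity of 80.0 with GANT61, 70.4 with cyclopamine and 69.6 with DMSO. Among the epithelial markers the keratin KRT8 was lower with both compounds, with 286 with GANT61, 335 with cyclopamine and 1423 with DMSO (log2 -2.32 and -2.09). EPCAM had 403, 387 and 401 in that order, and the keratin KRT18 had 239, 181 and 183. Of 4 fibroblast markers 2 passed the limit, while DCN and COL1A2 did not. COL1A1 had 74.9 with GANT61, 145 with cyclopamine and 205 with DMSO, and PDGFRB had 38.0, 56.1 and 68.3, above the limit with DMSO alone. The part of these markers in the results was not tested.

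With GANT61, 5 of the 120 small RNA genes (4.17%) lay 2-fold or more below DMSO, against 9.64% of all genes above background, and 5 lay 2-fold or more above it, against 8.16%. With cyclopamine, 3 (2.5%) were that much lower, against 6.31% of all genes, and 2 (1.67%) that much higher, against 4.7%. SNAR-A1, SNORD13 and RNU4ATAC passed 2-fold downward with both compounds, as 4.65% of all genes did, and no small RNA gene passed it upward with both, as 2.45% of all genes did. Both comparisons use the same DMSO array. At 2-fold and with the deposited scaling, the shares of the small RNA genes were thus below those of all genes. This did not hold in every setting. At 3-fold, the same 3 small RNA genes (2.5%) were lower with both compounds, against 1.06% of all genes. SNAR-A1 and SNORD13 were known as large falls when the members were chosen, so this share is no support. With the background subtracted, 13.3% of the small RNA genes were 2-fold or more higher with GANT61 than with cyclopamine, against 4.06%. After scaling on 9 reference genes 39.2% were 2-fold or more higher with GANT61 than with DMSO, against 35.9%. The reference genes were themselves uneven. With GANT61 they ran from -1.40 for YWHAZ to 0.53 for HPRT1 (log2 from DMSO), and 3 of the 9 (33.3%) were 2-fold or more lower.

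**Figure D1:**
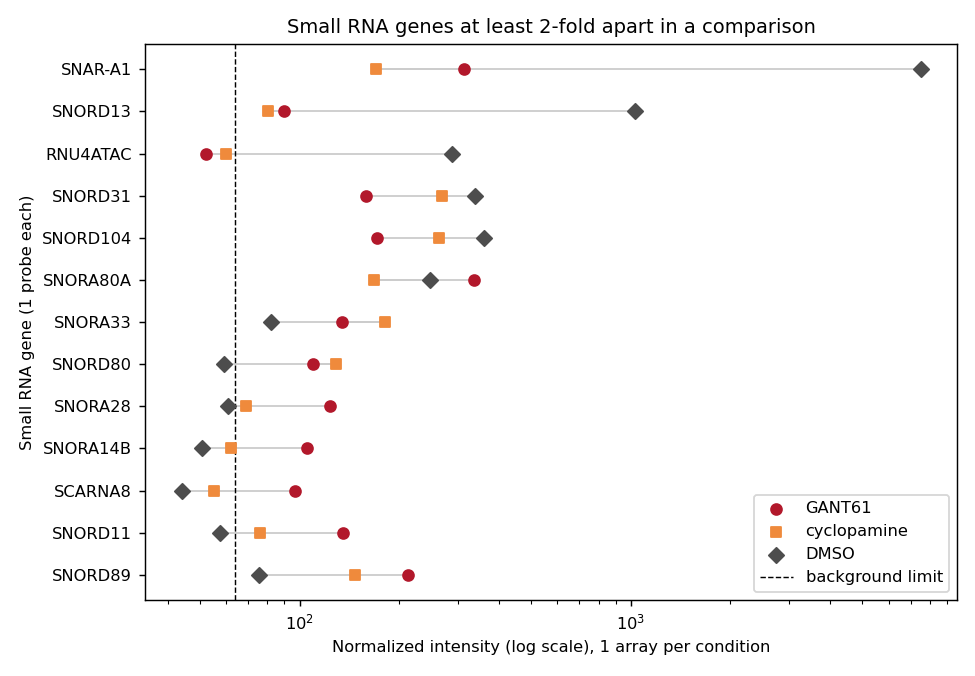
Normalized intensity (log axis) of the 13 small RNA genes at least 2-fold apart in a comparison, 1 point per array, for GANT61, cyclopamine and DMSO. The dashed line is the background limit of 63.75. For SNAR-A1, SNORD13 and RNU4ATAC the DMSO point lies far to the right of the GANT61 and cyclopamine points, and most genes that were higher with GANT61 lie near the limit on the DMSO array.

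SNAR-A1 is a copy of snaR, a short RNA found in African great apes and humans that RNA polymerase III transcribes and that binds the double-stranded RNA-binding protein NF90. It had an intensity of 314 with GANT61 and 170 with cyclopamine, against 7495 with DMSO. The gene was 23.9-fold lower with GANT61 and 44.1-fold lower with cyclopamine, log2 differences of -4.58 and -5.46. Both were rank 1 from the lowest among 10441 genes. It was above background on all 3 arrays, and the GANT61 array lay 0.89 (log2) above the cyclopamine array. Copies of the snaR-A kind are nearly identical in sequence, so the SNAR-A1 probe may not tell which of them was read. No sequence of a snaR gene was available here to check this. The other snaR probe, SNAR-I, was at background, with 37.2 with GANT61, 38.3 with cyclopamine and 36.9 with DMSO. ILF2, which pairs with NF90, had 3231 with GANT61, 2937 with cyclopamine and 3679 with DMSO.

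SNORD13 encodes U13, a C/D box RNA that guides acetylation of 18S ribosomal RNA and, unlike most snoRNAs, is transcribed from its own promoter. Its intensity was 89.7 with GANT61 and 80.2 with cyclopamine, both just above the limit, against 1029 with DMSO. That was 11.5-fold lower with GANT61 (log2 -3.52, rank 5 from the lowest) and 12.8-fold lower with cyclopamine (log2 -3.68, rank 3). The treated arrays differed from each other by 0.16, less than the SD between probes.

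RNU4ATAC encodes U4atac, a component of the minor spliceosome, which removes the rare U12-type introns. It had 52.3 with GANT61 and 60.2 with cyclopamine, not above background on either array, against 288 with DMSO. RNU4ATAC was therefore at least 4.52-fold lower with each compound. The gene lies within the span of CLASP1, which codes for a microtubule plus-end protein. CLASP1 had 245 with GANT61, 299 with cyclopamine and 301 with DMSO, log2 differences of -0.30 and -0.01 from DMSO. U6atac, the partner of U4atac, was read by a pair of probes for RNU6ATAC. The brighter one had 76.3 with GANT61, 75.2 with cyclopamine and 57.8 with DMSO, and the other had 61.7, 61.6 and 65.6 in the same order, so their signs against DMSO were opposite. RNU11, of the minor spliceosome as well, was not above background on any array with either of its probes. SNAR-A1, SNORD13 and RNU4ATAC have 1 probe each, so none of these 3 differences has a second probe behind it.

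SNORD31 and SNORD104 passed 2-fold downward with GANT61 alone. Both are C/D box RNAs within noncoding host genes. SNORD31, in SNHG1, had 158 with GANT61, 269 with cyclopamine and 339 with DMSO. SNORD104, in SNHG25, had 171 with GANT61, 263 with cyclopamine and 361 with DMSO. The cyclopamine array lay between the other arrays for both genes, with log2 differences from DMSO of -0.33 for SNORD31 and -0.46 for SNORD104, compared with -1.10 and -1.08 with GANT61. After scaling on reference genes the differences with GANT61 came to -0.37 and -0.35, so neither gene was 2-fold lower there. SNHG1 itself, a noncoding RNA whose introns carry a series of C/D box RNAs, had 2222 with GANT61, 3994 with cyclopamine and 3693 with DMSO. SNHG25 was not analysed here.

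The 5 genes that were 2-fold or more above DMSO with GANT61 were dim on the DMSO array. SNORD89, a C/D box RNA within RNF149, had 212 with GANT61, 147 with cyclopamine and 75.3 with DMSO. It was above background on all 3 arrays, with log2 differences from DMSO of 1.49 and 0.97. Its host RNF149, a ubiquitin ligase of the RING finger kind, had 2246 with GANT61, 1859 with cyclopamine and 1328 with DMSO with its brighter probe. The dimmer RNF149 probe had 177 with GANT61, 109 with cyclopamine and 74.5 with DMSO, so this host and SNORD89 had the same order of the 3 arrays.

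SNORD11, within the gene of the C/D box protein NOP58, had 135 with GANT61, 75.9 with cyclopamine and 57.6 with DMSO, and was at least 2.12-fold higher with GANT61 than the limit on the DMSO array. NOP58 had 2625 with GANT61, 1789 with cyclopamine and 2183 with DMSO. SCARNA8, a Cajal body RNA within HAUS6, had 97.0 with GANT61, 55.3 with cyclopamine and 44.1 with DMSO, which is at least 1.52-fold higher with GANT61. Its host HAUS6, a subunit of the spindle complex augmin, was not above background. SNORA14B, an H/ACA box RNA within the span of TOMM20, a subunit of the mitochondrial import receptor, had 106 with GANT61, 62.2 with cyclopamine and 50.6 with DMSO, at least 1.66-fold higher with GANT61. TOMM20 had 4511 with GANT61, 5158 with cyclopamine and 4455 with DMSO with its brighter probe, and 1625, 2578 and 2458 with the other. SNORA28, an H/ACA box RNA within the translation factor gene EIF5, had 123 with GANT61, 69.0 with cyclopamine and 60.7 with DMSO, at least 1.93-fold higher with GANT61. EIF5 had 768 with GANT61, 1030 with cyclopamine and 675 with DMSO. SNORD89, SNORD11, SCARNA8, SNORA14B and SNORA28 all had their highest value with GANT61 and their lowest with DMSO. They were chosen for being higher with GANT61 than with DMSO, so that part of the order was fixed by the choice. SCARNA8 and SNORA14B passed the limit with GANT61 alone, so their order of cyclopamine and DMSO is among background values. With dim values set to the limit, SNORD11 and SNORD89 remained past 2-fold.

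The pair past 2-fold upward with cyclopamine had another order. SNORA33, an H/ACA box RNA within RPS12, had 134 with GANT61, 181 with cyclopamine and 81.9 with DMSO. SNORD80, a C/D box RNA within GAS5, had 110 with GANT61, 128 with cyclopamine and 59.3 with DMSO, and was at least 2.02-fold higher with cyclopamine than the limit on the DMSO array. In both genes the cyclopamine array was the highest and the GANT61 array lay between it and DMSO, with log2 differences from DMSO of 0.71 and 0.89 with GANT61 and of 1.14 and 1.12 with cyclopamine.

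When GANT61 was set against cyclopamine at the same dose and time, 1 small RNA gene (0.833%) was 2-fold or more higher, against 2.31% of all genes, and none was 2-fold or more lower, against 3.4%. The gene was SNORA80A, an H/ACA box RNA within URB1, which codes for a ribosome biogenesis protein. SNORA80A had 337 with GANT61 and 168 with cyclopamine, a log2 difference of 1.01, and 247 with DMSO, between them. URB1 had 114 with GANT61, 105 with cyclopamine and 85.2 with DMSO.

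Small differences were mostly in 1 direction in this comparison. Of the 120 genes, 84 (70.0%) were higher with GANT61 than with cyclopamine, against 51.0% of all genes, with a median log2 difference of 0.16 against 0.0096. A gene that passed the limit through the GANT61 array alone had to be higher there, so this share is no support by itself. Among the 69 genes above background on all 3 arrays, 51 (73.9%) were higher with GANT61, against 51.5% of 9091 genes. Over all 327 genes without the filter the median was 0.058, against 0.0030. Against DMSO, 73 (60.8%) were higher with GANT61 and 59 (49.2%) with cyclopamine, with medians of 0.17 and -0.07, against 50.8% and 52.5% of all genes and medians of 0.02 and 0.03.

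**Figure D2:**
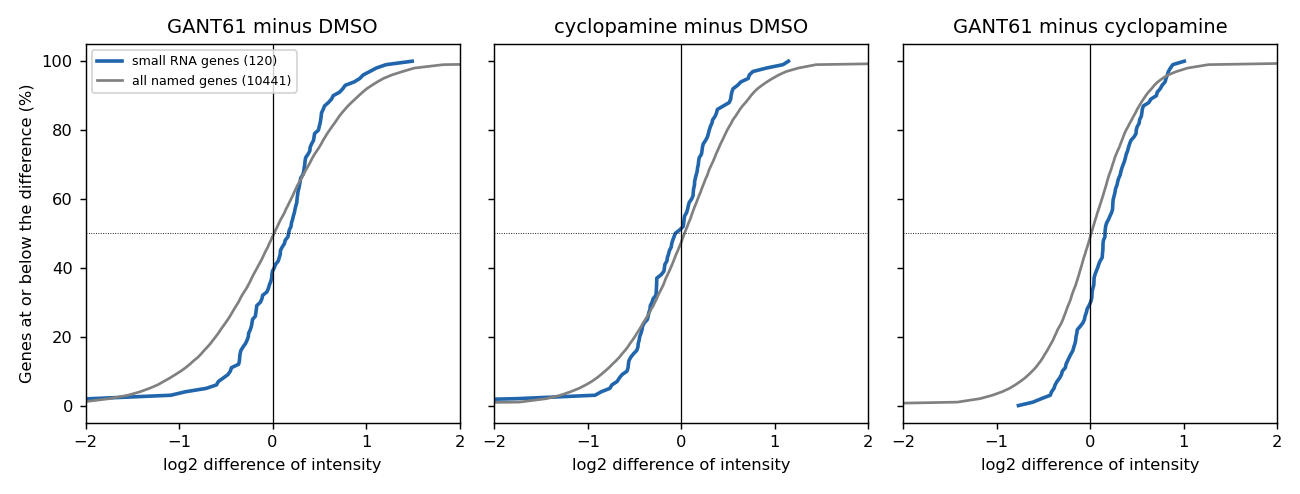
Share of genes (vertical axis, percent) at or below a log2 difference (horizontal axis, shown between -2 and 2) for the 120 small RNA genes and all 10441 genes above background, in each of the 3 comparisons. For GANT61 minus cyclopamine the small RNA curve runs to the right of that of all genes through its middle, with a median of 0.16 against 0.0096, and in the comparisons with DMSO the small RNA curve is the steeper one near zero.

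The small RNA genes also lay close to zero more often than genes in general. In GANT61 against DMSO 80.0% of them differed by less than 1.5-fold, against 58.2% of all genes. In cyclopamine against DMSO it was 82.5% against 67.8%, and in GANT61 against cyclopamine 85.8% against 78.7%. Most were dim: 71 of the 120 had a mean intensity below 100, where fewer of all other genes passed 2-fold as well. Below 100 the SD of the log2 difference in GANT61 against DMSO was 0.53 for small RNA genes and 0.57 for other genes. In cyclopamine against DMSO it was 0.47 for both, and in GANT61 against cyclopamine 0.35 and 0.43. In this range 1.41% of small RNA genes passed 2-fold downward with GANT61 against DMSO and 5.63% upward, against 5.33% and 2.04% of other genes. The upward share is 4 of 71 genes: SCARNA8, SNORA14B, SNORA28 and SNORD11. All were below the limit with DMSO and passed the filter through treated arrays, so this share is no support by itself. With dim values set to the limit, only SNORD11 of them stayed past 2-fold.

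By class, the C/D box genes had a median log2 difference from DMSO of 0.10 with GANT61 and -0.08 with cyclopamine, over 50 genes. The 45 H/ACA box genes had 0.26 and -0.06, and the 10 Cajal body genes had 0.13 and 0.06. Of the H/ACA box genes, 31 were higher with GANT61 than with DMSO and 14 lower, and 22 were higher with cyclopamine and 23 lower. Of all genes, 50.8% and 52.5% were higher. Against cyclopamine, 34 of the 45 H/ACA box genes, 33 of the 50 C/D box genes and 7 of the 10 Cajal body genes were higher with GANT61. Of all genes, 51.0% were. Of the H/ACA box genes, 42 exceeded the limit with GANT61, 34 on each other array and 26 on all 3. A gene that passed through GANT61 alone had to be higher there, so these class counts are no support by themselves.

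**Figure D3:**
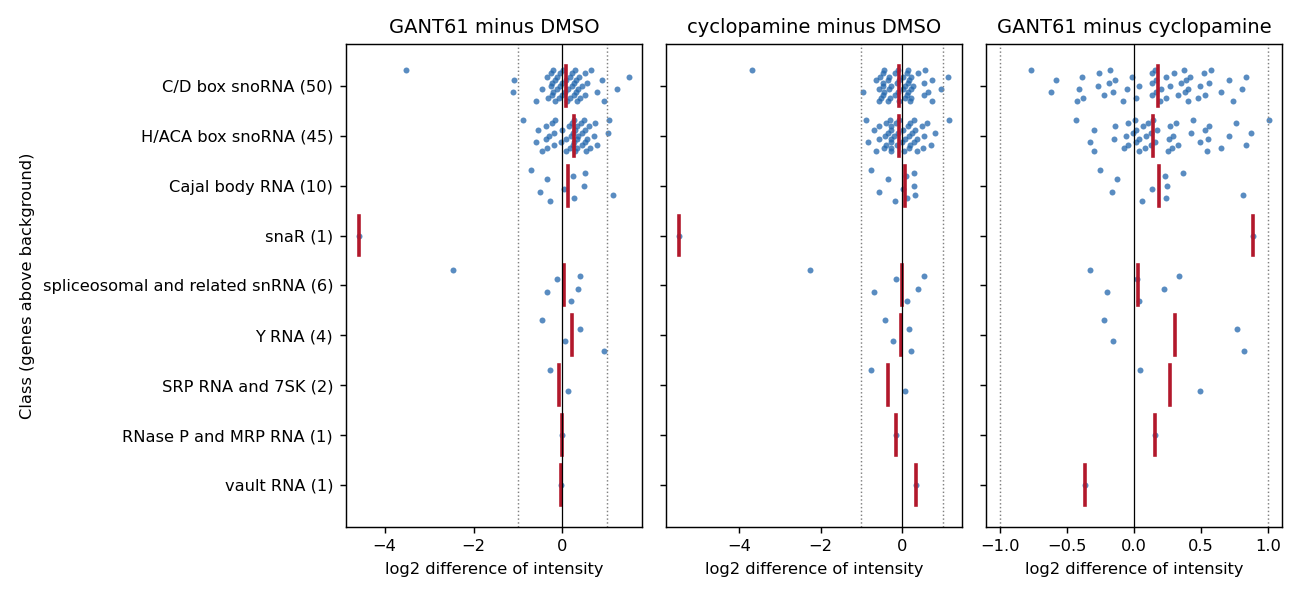
Log2 difference of intensity for each small RNA gene above background (points) by class, with the class median as a red bar, for GANT61 minus DMSO, cyclopamine minus DMSO and GANT61 minus cyclopamine. Dotted lines mark 2-fold, and the horizontal scales differ between the panels. The class medians with more than 1 gene stay within 1.5-fold of zero, and SNAR-A1, SNORD13 and RNU4ATAC lie apart on the left against DMSO.

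The members named from here on are the brightest of their class or were chosen after their values were seen. RN7SL1, the RNA scaffold of the signal recognition particle, had 16713 with GANT61, 16168 with cyclopamine and 15297 with DMSO, bright on every array. RN7SK, the RNA that holds the elongation factor P-TEFb inactive, had 630 with GANT61, 449 with cyclopamine and 760 with DMSO with its brighter probe. The other RN7SK probe had 108 with GANT61, 113 with cyclopamine and 76.0 with DMSO, so the probes disagree in direction against DMSO and no direction is given for 7SK.

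RNU6-1, for the U6 RNA at the catalytic core of the spliceosome, had 1477 with GANT61, 1855 with cyclopamine and 1287 with DMSO. RNU1-1, for the U1 RNA that recognizes the 5′ splice site, had 411 with GANT61, 325 with cyclopamine and 525 with DMSO, whereas RNU1-3, a near-identical copy, had 320, 274 and 251 in the same order. The probes of these U1 copies had opposite signs against DMSO with GANT61 and with cyclopamine. RNU4-2, for U4, had 127 with GANT61, 124 with cyclopamine and 138 with DMSO. The RNU4-2 probe thus differed from DMSO by -0.11 and -0.15 (log2), whereas the RNU4ATAC probe was at least 4.52-fold lower. Each of these genes has a single probe, and whether it read the mature RNA or a longer transcript cannot be told apart.

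Among the Y RNAs, which bind the Ro60 protein, RNY3 had 1121 with GANT61, 1252 with cyclopamine and 1074 with DMSO. RNY4 had 164 with GANT61, 96.2 with cyclopamine and 84.9 with DMSO, and RNY1 had 144, 81.4 and 109 in that order. Both were higher with GANT61 than with cyclopamine, by 0.77 for RNY4 and 0.82 for RNY1, while RNY5 had 73.0 with GANT61, 85.2 with cyclopamine and 99.4 with DMSO. The Y RNA genes therefore did not share an order of the arrays. RPPH1, the RNA of RNase P, which trims transfer RNA precursors, had 66.4 with GANT61, 59.5 with cyclopamine and 66.2 with DMSO, at the limit. RMRP, the RNA of RNase MRP, was at background on all 3 arrays. VTRNA2-1, which binds the kinase PKR, had 62.3 with GANT61, 80.4 with cyclopamine and 63.6 with DMSO, and passed the limit with cyclopamine alone.

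SNORA61, the brightest H/ACA box gene, had 840 with GANT61, 780 with cyclopamine and 1159 with DMSO. SCARNA10, the brightest Cajal body gene, had 254 with GANT61, 284 with cyclopamine and 322 with DMSO. SNORA67, an H/ACA box RNA within EIF4A1, had 163 with GANT61, 162 with cyclopamine and 301 with DMSO, just short of 2-fold lower with both (-0.89 and -0.90). The U3 genes SNORD3A and SNORD3D, copies of the C/D box RNA needed for early cleavage of ribosomal RNA precursors, had 130 each with GANT61, 91.1 and 106 with cyclopamine and 135 and 146 with DMSO. Both were lower with cyclopamine than with GANT61 or DMSO.

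Position within host genes was not used to choose the members. Of the 120 genes above background, 103 lie within the span of another annotated gene and 17 do not. The hosts of 74 are protein-coding, and 34 lie within genes of ribosomal proteins. The annotation used gives no strand, so some of these genes may lie on the opposite strand of their host. In 22 hosts at least 2 small RNA genes were above background, 52 in all. Their log2 differences from DMSO spread less within a host than over the 52 genes together, with an SD of 0.28 against 0.41 for GANT61 and of 0.26 against 0.50 for cyclopamine. For GANT61 minus cyclopamine it was 0.29 against 0.34. Members of 1 host share a transcript and are not independent.

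**Figure D4:**
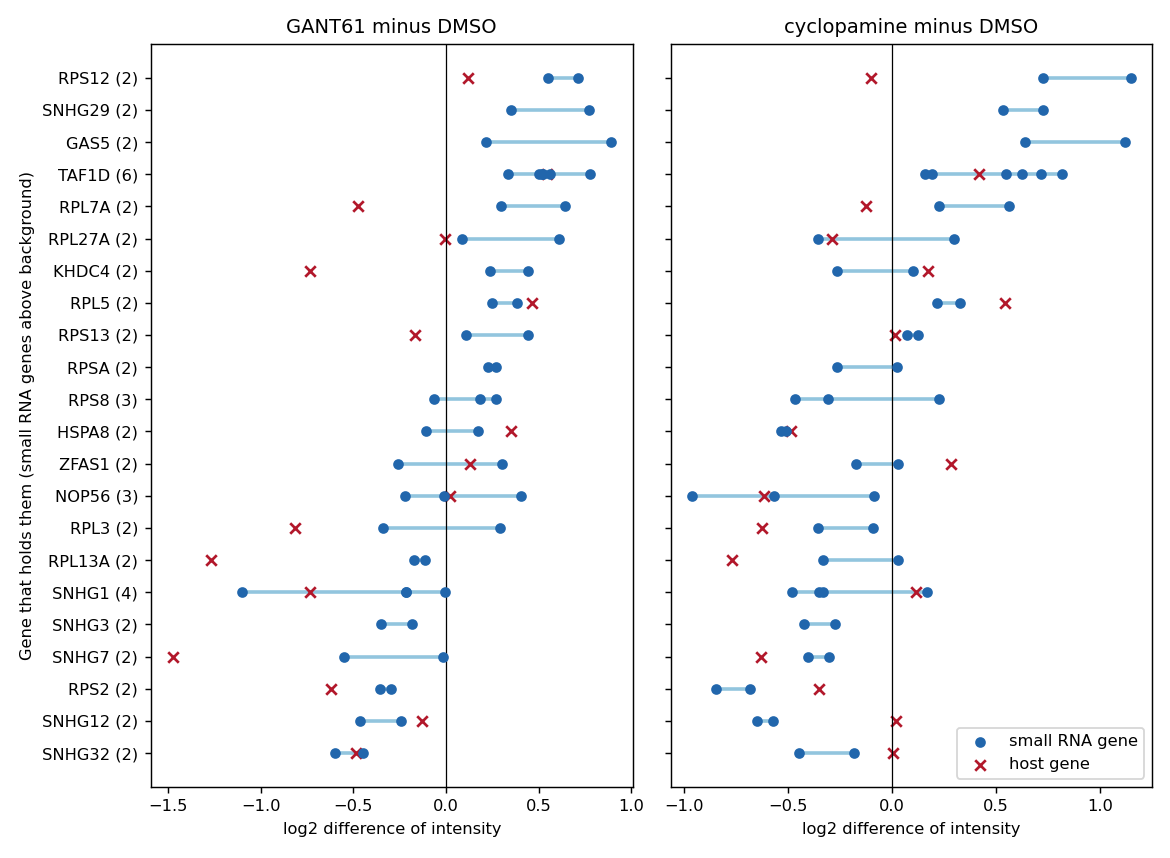
Log2 difference from DMSO of the small RNA genes above background (points, joined by a line) in the 22 genes that hold at least 2 of them, for GANT61 (left) and cyclopamine (right), with the difference of the host itself as a cross where the host was above background. All 6 points of TAF1D lie to the right of zero in both panels, and all points of RPS2 and SNHG12 to the left.

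TAF1D, a subunit of the RNA polymerase I selectivity factor SL1, holds 8 of the members, of which SNORA40 and SNORD5 were at background. The other 6, which are 5 H/ACA box genes and the C/D box gene SNORD6, were all higher than DMSO with both compounds. SNORA18 had 700 with GANT61, 628 with cyclopamine and 408 with DMSO. SNORA8 had 570 with GANT61, 633 with cyclopamine and 386 with DMSO, and SNORA25 had 737, 653 and 585 in that order. SNORA32 had 153 with GANT61, 187 with cyclopamine and 107 with DMSO. SNORD6 had 127 with GANT61, 101 with cyclopamine and 88.7 with DMSO, and SNORA1 had 84.0, 86.4 and 59.2, the last below the limit. The medians of the 6 were 0.52 with GANT61 and 0.58 with cyclopamine, and none reached 2-fold. The host had 520 with GANT61, 477 with cyclopamine and 357 with DMSO, log2 differences of 0.54 and 0.42, and its dimmer probe had 243, 185 and 93.9. All 6 were also above the median of all genes in both comparisons. TAF1D holds the most small RNA genes above background of any host, and the hosts described next were chosen after their values were seen.

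**Figure D5:**
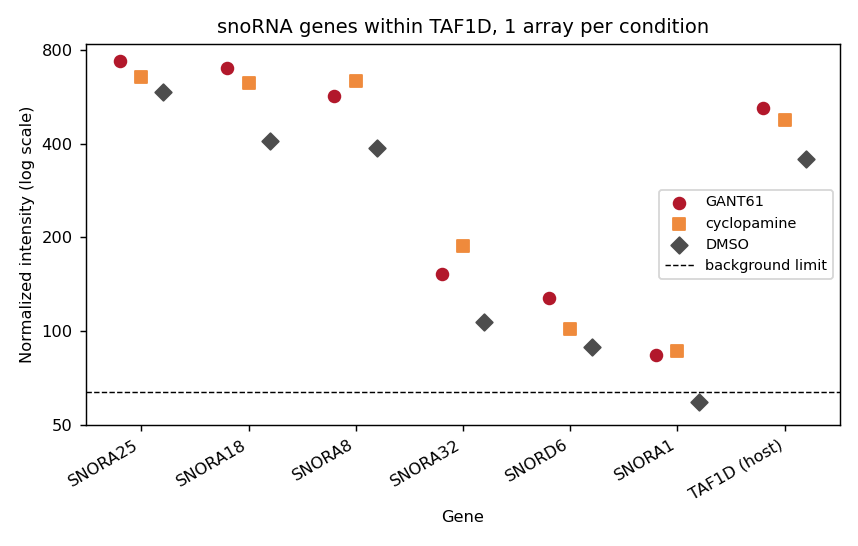
Normalized intensity (log axis) of the 6 snoRNA genes above background within TAF1D and of TAF1D itself, on the GANT61, cyclopamine and DMSO arrays. In each gene the GANT61 and cyclopamine points lie above the DMSO point. The dashed line is the background limit of 63.75.

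Of the other hosts, RPS12 holds SNORA33 and SNORD100, which had median differences from DMSO of 0.63 with GANT61 and 0.94 with cyclopamine, beside 0.12 and -0.10 for the ribosomal protein gene itself. GAS5, a noncoding host whose transcript has a short, poorly translated reading frame, holds SNORD78 and SNORD80, with medians of 0.55 and 0.88. The other GAS5 members and the host probe were at background. SNHG29 holds SNORD49A and SNORD65, with medians of 0.56 and 0.63. In these 3 hosts the small RNA genes were higher with both compounds.

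In the opposite direction, the 4 genes within SNHG1 (SNORD22, SNORD25, SNORD30 and SNORD31) had medians of -0.22 with GANT61 and -0.34 with cyclopamine, the 2 within RPS2 (SNORA10 and SNORA64) -0.33 and -0.76, and the 2 within SNHG12 (SNORA61 and SNORD99) -0.35 and -0.61. SNHG12 itself had 157 with GANT61, 174 with cyclopamine and 171 with DMSO. These medians were below the median of all genes in each scaling. After scaling on reference genes, however, the medians with GANT61 were above DMSO at 0.52 for SNHG1, 0.40 for RPS2 and 0.38 for SNHG12, and with cyclopamine at 0.19 for SNHG1, since that scaling moved the median of all genes to 0.75 with GANT61 and 0.57 with cyclopamine. Over the 79 small RNA genes whose host was above background (55 distinct hosts), Spearman's rho between the differences of small RNA and host was 0.34 for GANT61 against DMSO, 0.32 for cyclopamine against DMSO and 0.14 for GANT61 against cyclopamine. The points share arrays and hosts, so these are descriptions.

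Host genes of snoRNAs often start with a run of pyrimidines, as ribosomal protein genes do. The stretch from 60 bases before to 10 bases from the start is shown for 6 of the hosts above, in which members lay together on 1 side of DMSO or, in SNHG1, mostly did, with the longest run of only C and T within the 20 bases around the start in capitals. The sequences are from RefSeq on GRCh38.p14, written 5′ to 3′ on the strand of the gene, at chr11:93741486-93741555 (minus) for TAF1D, chr6:132814509-132814578 (plus) for RPS12, chr1:173869036-173869105 (minus) for GAS5, chr17:16438927-16438996 (plus) for SNHG29, chr11:62855876-62855945 (minus) for SNHG1 and chr1:28581864-28581933 (minus) for SNHG12.
TAF1D: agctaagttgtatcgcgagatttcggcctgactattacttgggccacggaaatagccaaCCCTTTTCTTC
RPS12: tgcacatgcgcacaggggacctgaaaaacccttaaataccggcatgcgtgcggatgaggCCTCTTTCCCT
GAS5: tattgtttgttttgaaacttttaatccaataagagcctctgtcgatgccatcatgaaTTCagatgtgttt
SNHG29: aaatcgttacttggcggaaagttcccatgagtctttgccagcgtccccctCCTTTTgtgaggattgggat
SNHG1: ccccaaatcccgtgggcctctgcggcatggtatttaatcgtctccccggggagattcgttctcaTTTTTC
SNHG12: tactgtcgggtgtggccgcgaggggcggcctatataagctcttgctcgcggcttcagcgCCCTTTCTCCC

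The run was 11 bases long in TAF1D, RPS12 and SNHG12, a length that 2.18% of 35116 promoters reached in the same window. It was 6 bases in SNHG29 and SNHG1, which 22.2% of promoters reached, and 3 in GAS5, which 80.4% reached. Except in GAS5, these runs reach an edge of the window. Followed past it, within 50 bases after the start, the run was 13 bases in SNHG29 (3.45% of promoters had one as long), 12 in TAF1D and SNHG12 (4.48%), 11 in RPS12 (5.97%) and 7 in SNHG1 (21.3%). With the deposited scaling the small RNA genes within TAF1D and RPS12 were higher with both compounds and those within SNHG12 lower. RPS12 and SNHG12 were chosen after their values were seen, and a link between run length and direction was not tested. Of the 67 hosts with a promoter in the table, 20 (29.9%) had a run of at least 8, against 9.25% of all promoters, a length chosen after seeing the data. A single start is shown for each of these hosts, so the lengths hold for that start alone. Only the strand of the gene was searched, and a run is a description of letters and not a binding site. None of the 327 small RNA genes has an entry in that table.

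The proteins that assemble, transcribe and bind these RNAs were described from lists of known partners. Of 148 listed genes 140 have a probe and 136 were above background. With GANT61, 8 (5.88%) were 2-fold or more lower than with DMSO, against 9.64% of all genes, and 8 (5.88%) that much higher, against 8.16%, with a median of 0.19. With cyclopamine, 12 (8.82%) were lower, against 6.31% of all genes, and 5 (3.68%) higher, against 4.7%, with a median of 0.02. The counts of the smaller lists below are to be set against the same shares of all genes. LSM4, GTF3C5, MAF1, SRPRA and RPP25 passed 2-fold downward with both compounds, and SNAPC4 and INTS2 upward.

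Among the C/D box core proteins, none of 4 was 2-fold apart from DMSO. The methyltransferase FBL had 3023 with GANT61, 3206 with cyclopamine and 2144 with DMSO, NOP56 had 3852, 2477 and 3791, and SNU13 had 2944, 2072 and 1497 in that order. The other probes of NOP56 were higher than DMSO with both compounds (0.68 and 0.41 for one, 1.03 and 0.55 for the other), and 1 other probe of SNU13 was lower with cyclopamine (-0.16), so no direction is given for NOP56, nor for SNU13 with cyclopamine. Among the 4 H/ACA core proteins, GAR1 had 1559 with GANT61, 1405 with cyclopamine and 732 with DMSO, and NHP2 had 1308 with GANT61, 1922 with cyclopamine and 2816 with DMSO. These partners of the same complex differed in direction, with log2 differences from DMSO of 1.09 and 0.94 for GAR1 and of -1.11 and -0.55 for NHP2. The pseudouridine synthase DKC1 had 2894 with GANT61, 2057 with cyclopamine and 3713 with DMSO, and NOP10 had 7026, 6523 and 4092. All 4 NHP2 probes were lower than DMSO with both compounds. Of the 4 GAR1 probes, all were higher than DMSO with GANT61, and 1 was lower with cyclopamine.

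Of 23 RNA polymerase III genes above background, 3 passed 2-fold downward and 1 upward with GANT61 against DMSO, and 3 were lower and none higher with cyclopamine. Their median log2 difference from DMSO was 0.43 with GANT61 and -0.10 with cyclopamine. The gene that passed upward was POLR3F, named after its values were seen. It had 204 with GANT61, 140 with cyclopamine and 89.1 with DMSO. MAF1, which represses this polymerase, had 109 with GANT61, 122 with cyclopamine and 335 with DMSO. GTF3C5, a subunit of TFIIIC, had 286 with GANT61, 226 with cyclopamine and 667 with DMSO. POLR1D, a subunit shared with RNA polymerase I, had 7548 with GANT61, 6126 with cyclopamine and 4626 with DMSO with its brighter probe. The other had 80.1 with GANT61, 137 with cyclopamine and 218 with DMSO, the opposite order, so no direction is given for POLR1D. POLR3G, chosen after its values were seen as the 1 partner gene at least 2-fold apart between the compounds, had 229 with GANT61 and 109 with cyclopamine, and 172 with DMSO.

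Of 22 genes for transcription and 3′ processing of spliceosomal RNAs, 2 were 2-fold or more higher and none lower with GANT61, and 3 were higher and 1 lower with cyclopamine. SNAPC4, the DNA-binding subunit of the factor that starts these genes, had 937 with GANT61, 859 with cyclopamine and 421 with DMSO. INTS2, of the Integrator complex that cuts their 3′ ends, had 248 with GANT61, 240 with cyclopamine and 111 with DMSO. The gene counted as lower with cyclopamine was INTS11, also of Integrator and named after its values were seen. It had 164 with GANT61, 135 with cyclopamine and 282 with DMSO, log2 differences of -0.78 and -1.06. The genes of this list thus differed in direction, and any part of them in the difference of RNU4ATAC was not tested.

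Of 24 genes for the assembly of these RNA-protein particles, PIH1D1 was 2-fold or more lower and TGS1 and PHAX higher with GANT61. NOLC1 was lower and none higher with cyclopamine. These were named after their values were seen. Of 29 Sm, LSm and other spliceosomal proteins, 1 was lower and none higher with GANT61. With cyclopamine 4 (13.8%) were lower, against 6.31% of all genes, and 2 (6.9%) higher, against 4.7%. LSM4, of the ring that binds the end of U6, had 1030 with GANT61, 1393 with cyclopamine and 4011 with DMSO, log2 differences of -1.96 and -1.53. The Sm protein SNRPD2 had 12589 with GANT61, 12191 with cyclopamine and 10514 with DMSO. RPP25, a protein of RNase P and MRP, had 235 with GANT61, 320 with cyclopamine and 776 with DMSO, whereas RPP40 of the same complex had 3366, 2033 and 1192. SRPRA, a subunit of the receptor of the signal recognition particle, had 170 with GANT61, 196 with cyclopamine and 427 with DMSO. The other subunit, SRPRB, named after its values were seen, went the opposite way. It had 2805 with GANT61, 1821 with cyclopamine and 1289 with DMSO, log2 differences of 1.12 and 0.50. SRP9, which binds 7SL, had 6874, 6756 and 6194 in the same order. None of 6 genes of the 7SK particle and none of 5 Ro, La and vault protein genes was 2-fold apart from DMSO. RO60 had 1633 with GANT61, 1564 with cyclopamine and 1469 with DMSO, and SSB, the La protein, had 1662, 1297 and 2260.

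Of 14 noncoding snoRNA host genes above background, SNHG7 and SNHG9 were 2-fold or more lower with GANT61 than with DMSO and none was 2-fold apart with cyclopamine. Against cyclopamine, SNHG8, SNHG9 and DANCR (21.4%) were that much lower with GANT61, against 3.4% of all genes. These were chosen after their values were seen. SNHG9 had 323 with GANT61, 1032 with cyclopamine and 737 with DMSO, SNHG8 had 892, 1964 and 1176, and DANCR had 135, 350 and 214. The small RNA within SNHG8, SNORA24, had 182 with GANT61, 187 with cyclopamine and 144 with DMSO, so it did not follow the order of its host. ZFAS1, the brightest of these hosts, had 7759 with GANT61, 8612 with cyclopamine and 7080 with DMSO.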

How the data were processed

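HCC-LM3 cells in each of 3 conditions were read on 1 array. The authors deposited a normalized linear intensity for each of 47319 probes, with software not given in the sources used here. Another deposited table holds 6 columns of signals and detection values whose headings match no sample, and these were not used. The median intensity was 47.6 with GANT61, 47.6 with cyclopamine and 47.7 with DMSO and their number limits the precision. The platform annotation gives 1 symbol for 30110 probes, several for 8 and none here for 17201, and 30071 of the first matched the GRCh38.p14 gene table, which served for spans of host genes (the shortest gene around a small RNA).

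Log2 differences were taken between arrays without a test. The paper's DiffScore was replaced by a 2-fold rule among genes above 1.5 times the most common intensity on at least 1 array. A gene's level is its probe with the highest mean log2 intensity. Values below the limit give "at least" folds against it. The members and the lists were chosen with earlier results of these data known. Named genes were the members at least 2-fold apart, the brightest of each class, up to 4 of each list (those 2-fold apart with both compounds, then the brightest) and hosts, and others are marked. The design asked for hosts on the same strand, which the table does not give. Alternatives were normexp with an offset of 50 and quantile normalization, the mean of all probes, no filter, a limit of 2 times, 1.5-fold and 3-fold, scaling on 9 reference genes, and background subtraction with an offset of 16. The reference genes were ACTB, GAPDH, B2M, HPRT1, TBP, PPIA, SDHA, YWHAZ and GUSB. Dim values at the limit and genes above background on all 3 arrays were added after seeing the data. The steps were tested on simulated data. The tools were limma 3.58.1 in R 4.3.3, and scipy 1.17.1, matplotlib 3.10.9, pandas 2.3.3 and numpy 2.4.6 in Python 3.11.15.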

Additional observations from a re-analysis of the deposited data

How the results depend on the processing

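No paired analysis was possible because each condition has 1 array and the groups share only replicate number 1. SNAR-A1 and SNORD13 stayed past 2-fold downward with both compounds under every alternative run, and RNU4ATAC under all but the one that required all 3 arrays to be above background, which leaves it out (2 genes lower with both). Counts are given as lower and higher, and percentages in parentheses are those of all genes. Under normexp the numbers higher were 2 (GANT61 against DMSO, 6.9%), 0 (cyclopamine against DMSO, 3.77%) and 0 (GANT61 against cyclopamine, 1.84%). At 1.5-fold they were 9 and 15 (20.8% and 21%), 12 and 9 (16.6% and 15.7%), and 2 and 15 (11% and 10.3%) in that order of comparisons. At 3-fold, 3 were lower and 0 higher with GANT61 than with DMSO (2.83% and 1.7%), and 0 were higher in the other comparisons (0.565% and 0.517%). With the background subtracted they were 9 and 11 for GANT61 (13.4% and 11.5%) and 8 and 6 for cyclopamine (9.4% and 7.18%), 16 were higher with GANT61 than with cyclopamine (4.06%), and 5 were lower with both compounds (6.83%). With dim values at the limit, 2 were higher with GANT61 than with DMSO (8.01%), and among genes above background on all 3 arrays 1 was higher with each compound (8.77% and 5.15%). Scaling on the reference genes, whose median was -0.73 with GANT61 and -0.54 with cyclopamine relative to DMSO, gave 3 lower (2.09%) and 47 higher (35.9%, members' median 0.90) for GANT61, 16 higher (21.5%, members' median 0.47) for cyclopamine and 8 higher for GANT61 against cyclopamine (4.52%). The median of all genes under it was 0.75, 0.57 and 0.21, and SNORD31 and SNORD104 came to -0.37 and -0.35 with GANT61. The causes of these changes were not tested. With 1 array per condition, dim signals limit the precision: 71 of 120 genes had a mean intensity below 100.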
